A study of Mus musculus with 6 samples.

Results

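The 7 genes described here are the Notch receptors Notch1, Notch2 and Notch3 and the canonical Notch ligands Dll1, Dll4, Jag1 and Jag2, chosen by name from the 41799 rows of a gene count table of mouse liver sinusoidal endothelial cells (SECs). SECs are the fenestrated cells that line the blood sinusoids of the liver. They were isolated from male mice with liver fibrosis, either controls or mice in which RBPj was knocked out in endothelium, and their RNA was sequenced in 3 libraries per group. Deletion was induced with tamoxifen (2 mg per 20 g body weight, once a day for 7 days) at 4 to 6 weeks of age, fibrosis followed from CCl4 (0.6 µl per g, 15% in olive oil, 2 injections a week for 6 weeks), and the mice were 12 to 14 weeks old. The protocol text is the same for all 6 libraries. What drove the deletion (Cre line and alleles), the genotype of the controls and any pooling of mice were not given in the sources used here. As strain, C57BL/6 is the label of the 3 control libraries and 1 knock-out library, C57BL/7 that of knock-out library 2 and C57BL/8 that of knock-out library 3. Since no source states that the libraries came from separate mice, p-values measure the spread between these libraries, which may be technical. Libraries of one group differed beyond counting noise, with a chi-square per gene of 20.1 to 113 for the 6 pairs within groups, so none was counted as a repeat of another.

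Notch signaling passes between touching cells. A ligand of the Delta-like or Jagged family on one cell binds a Notch receptor on its neighbor, ADAM10 and then gamma-secretase cut the receptor, and the freed intracellular domain enters the nucleus. There it binds RBPj, the DNA-binding protein common to all Notch receptors, and turns on targets such as the Hes and Hey repressors. In blood vessels, Notch1 and Dll4 are known for restraining sprouting and for arterial identity, Jag1 for opposing Dll4 in sprouting and for signaling to mural cells, and Notch3 as a receptor of pericytes and smooth muscle.

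Library totals ran from 10372195 to 12326770 counts, at which 3 counts correspond to 0.243 to 0.289 CPM (counts per 1e6 counts of the library, here with TMM factors of 0.906 to 1.054). All 13 sinusoidal endothelial markers were detected, and their summed level was 16177 to 23070 CPM in the controls and 23076 to 29135 CPM in the knock-out. Of the 13, 5 were higher in every knock-out library than in every control, against 13.2% of all genes tested. The reverse held for 1, Clec4g (1376 to 2057 CPM in the controls, 607 to 1043 CPM in the knock-out), against 11.7% of all genes. Markers of other cells were present too. The 12 stellate cell and pericyte markers summed to 2881 to 7602 CPM in the controls and 844 to 2107 CPM in the knock-out. Of the 12, 11 were lower in every knock-out library than in every control, against 11.7% of all genes. The 6 neutrophil markers, with Mpo at 0 throughout, summed to 14694 CPM in control library 1 and 3366 CPM in knock-out library 1 against 229 to 571 CPM in the other 4. In bulk RNA, fewer cells of a type and less RNA per cell cannot be told apart.

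Rbpj, the targeted gene, had 174, 172 and 173 counts in the controls and 128, 99 and 154 in the knock-out. Its level was 16.5 ± 2.02 CPM (SD, n = 3) in the controls and 10.6 ± 2.13 CPM in the knock-out, and the groups did not overlap. The log2 fold change was -0.64 ± 0.19 (SE), with an adjusted p of 0.187 by edgeR's quasi-likelihood test with Benjamini-Hochberg adjustment, which did not pass 0.05. Counts were summed over the whole gene, so reads from parts of the gene that deletion leaves in place are included.

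The first question was which receptor and which ligand dominated. Per length, Notch1 was the highest of the 3 receptors and Dll4 the highest of the 4 ligands in all 6 libraries. Notch4, another endothelial receptor, could not be placed, as described under the receptor mix below. Levels of different genes are compared here as normalized RPKM, the normalized CPM divided by the gene length in the table in kilobases. Notch1 was at 65.3 ± 13.1 RPKM (SD, n = 3) in the controls and Dll4 at 64.8 ± 19.3 RPKM, each higher than 94.4% of the 15404 genes tested. The other 5 members lay far lower, and the lowest, Jag2, was at 0.877 ± 0.142 RPKM in the controls.

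In the controls the ranges of Notch1 (52.8 to 79.0 RPKM) and Dll4 (46.5 to 85.0 RPKM) overlapped, so these neighbors in the order did not differ beyond their spread. The next 4 members, Notch2 (8.42 to 21.1 RPKM), Dll1 (9.53 to 13.9 RPKM), Jag1 (5.96 to 10.5 RPKM) and Notch3 (3.85 to 13.6 RPKM), overlapped each other as well. Jag2 (0.780 to 1.04 RPKM) was below every other member in each control library. In the knock-out, Notch1 (54.3 to 64.6 RPKM) lay above Dll4 (33.2 to 44.0 RPKM), and Dll4 lay above Dll1 (14.3 to 26.3 RPKM). Below Dll1, the ranges of Notch2 (4.72 to 12.4 RPKM), Notch3 (1.19 to 5.62 RPKM) and Jag2 (2.00 to 5.80 RPKM) overlapped each other. Jag1 (2.19 to 3.59 RPKM) overlapped Notch3 and Jag2 and lay below Notch2. The ratio of Notch1 to Dll4 was 0.929, 1.02 and 1.13 in the controls and 1.82, 1.57 and 1.23 in the knock-out, without overlap.

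One gene length matters for this order. The table gives Jag1 11721 bases, while its principal transcript in GENCODE M21 has 5612, a ratio of 2.09. For the other 6 members the ratio was 0.921 to 1.07. With the GENCODE lengths, an alternative chosen after seeing the data, Jag1 was at 16.9 ± 4.75 RPKM in the controls and 6.08 ± 1.47 RPKM in the knock-out. Jag1 then stood above Dll1 in control libraries 1 and 3 and above Jag2 in all 3 knock-out libraries, and its knock-out range (4.57 to 7.50 RPKM) overlapped that of Notch2, whereas Dll4 remained the highest ligand and Notch1 the highest receptor in all 6. Comparisons of one gene between libraries do not depend on its length.

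**Figure D1:**
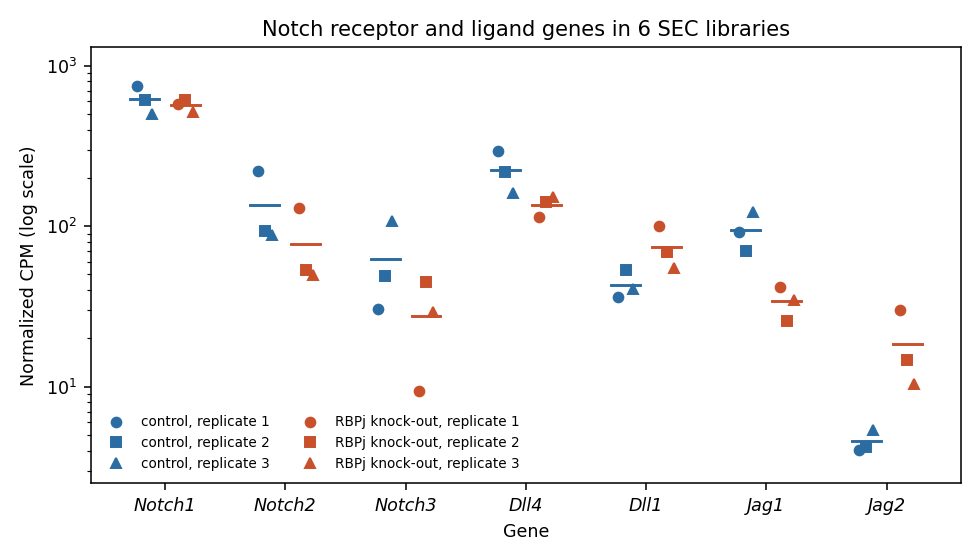
Normalized CPM (log scale) of the 7 genes in each of the 6 libraries; blue marks are controls, orange marks RBPj knock-outs, marker shapes are replicate numbers and short bars are group means (n = 3). The 2 groups do not overlap for Dll4, Dll1, Jag1 and Jag2 and overlap for the 3 receptors.

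The next question was how each member differed without RBPj. No member passed the threshold of 0.05 after adjustment over all genes by edgeR (0 of 7, where 0.195% of the 15404 genes tested were called). At an unadjusted p below 0.05 there were 4 of 7, against 17.5% of all genes, 2 of them higher (9.39% of all genes) and 2 lower (8.13%). The same 4, all of them ligands, had groups that did not overlap, Dll4 and Jag1 being lower and Dll1 and Jag2 higher in the knock-out, against 24.9% of all genes. DESeq2 called Jag1 and Jag2 (2 of 7, with 6.15% of all genes called), and limma-voom with sample quality weights called Jag1 (3.17% of all genes called).

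Notch1, the main endothelial receptor, had 749, 608 and 501 CPM in the controls and 574, 613 and 515 CPM in the knock-out. The groups overlapped, and control library 1 was the highest. Its log2 fold change was -0.13 ± 0.18 (SE, 95% interval -0.56 to 0.30), with an adjusted p of 0.741 by edgeR's quasi-likelihood test with Benjamini-Hochberg adjustment, as for all adjusted p-values below. Without control library 1 the value was 0.03.

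Notch2, a receptor known for its part in bile duct formation, was at 222, 93.8 and 88.4 CPM in the controls and 130, 53.6 and 49.6 CPM in the knock-out. Library 1 stood above the other 2 in each group, and the groups overlapped. Notch2's log2 fold change was -0.79 ± 0.53 (95% interval -2.10 to 0.52, adjusted p = 0.483). It was -0.23 without control library 1 and -1.37 without knock-out library 1. These 2 libraries were also the highest for the neutrophil markers, led by S100a8 and S100a9, subunits of a neutrophil calcium-binding protein. In libraries 2 and 3 the neutrophil sums were 229 and 278 CPM in the controls and 571 and 463 CPM in the knock-out. There the knock-out was higher for these markers and lower for Notch2. Per 1000 CPM of the neutrophil markers, Notch2 was at 15.1, 410 and 318 CPM in the controls. On that scale it was at 38.7, 93.9 and 107 CPM in the knock-out, and the groups overlapped. The part of neutrophils in the Notch2 values was not tested beyond this.

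Notch3, the mural cell receptor, was at 30.6, 48.8 and 108 CPM in the controls and 9.45, 44.6 and 29.2 CPM in the knock-out. Control library 3 was the highest and knock-out library 1 the lowest, and the groups overlapped. For Notch3 the log2 fold change was -1.17 ± 0.68 (95% interval -2.84 to 0.50, adjusted p = 0.421), and -0.52 without control library 3. It was -0.75 without knock-out library 1. The 6 smooth muscle markers summed to 134 to 331 CPM in the controls and 27.5 to 119 CPM in the knock-out, without overlap. The stellate cell and pericyte markers were also highest in control library 3 and lowest in knock-out library 1. Per 1000 CPM of those markers, Notch3 was at 10.6, 16.3 and 14.2 CPM in the controls and 11.2, 21.2 and 16.5 CPM in the knock-out, so that on this scale the groups overlapped and the knock-out mean was the higher one. The part of stellate cells and pericytes in the Notch3 values was not tested beyond this.

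**Figure D2:**
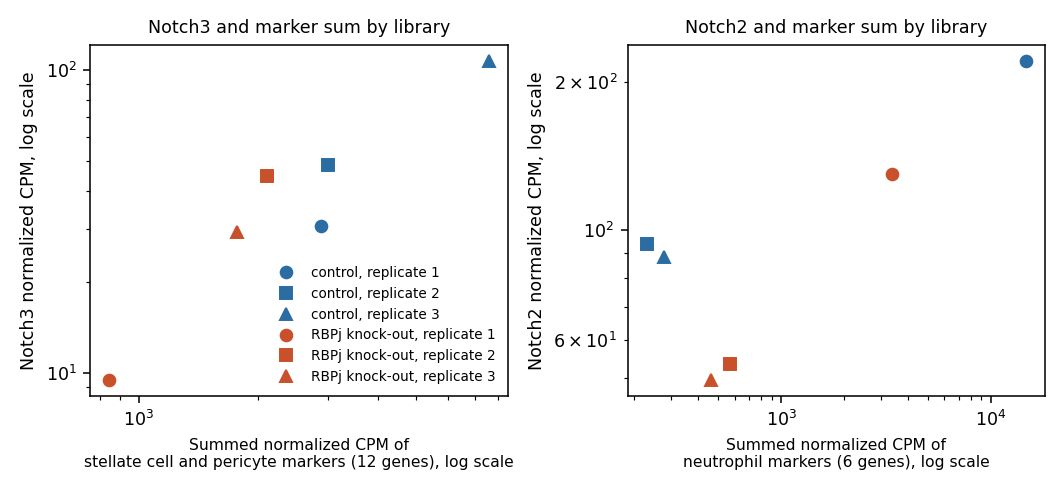
Left, Notch3 against the summed level of 12 stellate cell and pericyte markers; right, Notch2 against the summed level of 6 neutrophil markers. Each point is 1 library, both axes are normalized CPM on log scales, blue is control and orange is RBPj knock-out; control library 3 is highest and knock-out library 1 lowest on both axes at left, and control library 1 and knock-out library 1 are the 2 highest on both axes at right.

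Dll4, the main arterial and tip-cell ligand, was at 293, 217 and 161 CPM in the controls and 115, 142 and 152 CPM in the knock-out. Every knock-out library was below every control, though knock-out library 3 and control library 3 lay close together. In the authors' RPKM values, which are scaled to the library total without TMM factors, Dll4 overlapped between groups, and 3 of the 7 members did not. The log2 fold change was -0.72 ± 0.24 (95% interval -1.29 to -0.14, adjusted p = 0.216), and -0.47 without control library 1.

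Jag1, the ligand mutated in most Alagille syndrome families, was at 92.2, 69.9 and 123 CPM in the controls and 42.1, 25.6 and 34.6 CPM in the knock-out. All 3 knock-out libraries were below the lowest control, and the control mean was 2.79 times the knock-out mean. Jag1's log2 fold change was -1.48 ± 0.27 (95% interval -2.13 to -0.83), with an adjusted p of 0.0913 by edgeR, 6.6e-05 by DESeq2 and 0.0425 by limma-voom. Leaving out each library in turn gave -1.64 to -1.25. The 8 arterial markers, which include the gap junction genes Gja4 and Gja5, summed to 800 to 1033 CPM in the controls and 475 to 549 CPM in the knock-out. Per 1000 CPM of these markers, Jag1 was at 99.4, 87.4 and 119 CPM in the controls and 86.3, 46.7 and 72.9 CPM in the knock-out. The groups did not overlap, but only by a narrow margin between control library 2 and knock-out library 1. On the same scale Dll4 was at 316, 272 and 155 CPM in the controls and 235, 259 and 320 CPM in the knock-out, so that the groups overlapped and the knock-out mean (271 CPM) was above the control mean (248 CPM). Per 1000 CPM of the stellate cell and pericyte markers, Jag1 was at 32.0, 23.3 and 16.2 CPM in the controls and 49.8, 12.2 and 19.5 CPM in the knock-out, which overlapped. Among the arterial markers, Gja4, Gja5, Sox17 and Cxcr4 are also in the list of Notch targets described below. The arterial sum can thus itself differ with RBPj, and it cannot separate arterial cell content from target levels. The arterial markers Fbln5 and Eln were highest in control library 3 (207 and 205 CPM) and lowest in knock-out library 1 (10.5 and 24.9 CPM). The stellate cell and pericyte sum was highest and lowest in the same libraries. No other arterial marker was highest in control library 3. Whether stellate cells and pericytes add to the arterial sum was not tested. The part of arterial cells or of stellate cells and pericytes in the Jag1 and Dll4 values was not tested beyond this scaling.

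Dll1, a Delta-like ligand with a part in arterial growth and in lymphocyte fate, was at 36.4, 53.1 and 40.4 CPM in the controls and 100, 68.6 and 54.6 CPM in the knock-out. Each knock-out library was above each control, by a narrow margin between knock-out library 3 and control library 2. The log2 fold change was 0.78 ± 0.26 (95% interval 0.15 to 1.41, adjusted p = 0.216), and 0.52 without knock-out library 1.

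Jag2, the second Jagged ligand, had 38, 50 and 57 counts in the controls and 332, 178 and 134 counts in the knock-out. That is 4.05, 4.22 and 5.41 CPM against 30.2, 14.6 and 10.4 CPM, so the groups were far apart and knock-out library 1 was the highest. The knock-out mean was 4.03 times the control mean. Its log2 fold change was 2.01 ± 0.43 (95% interval 0.97 to 3.04), with an adjusted p of 0.118 by edgeR, 0.000726 by DESeq2 and 0.0863 by limma-voom. It was 1.46 without knock-out library 1.

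**Figure D3:**
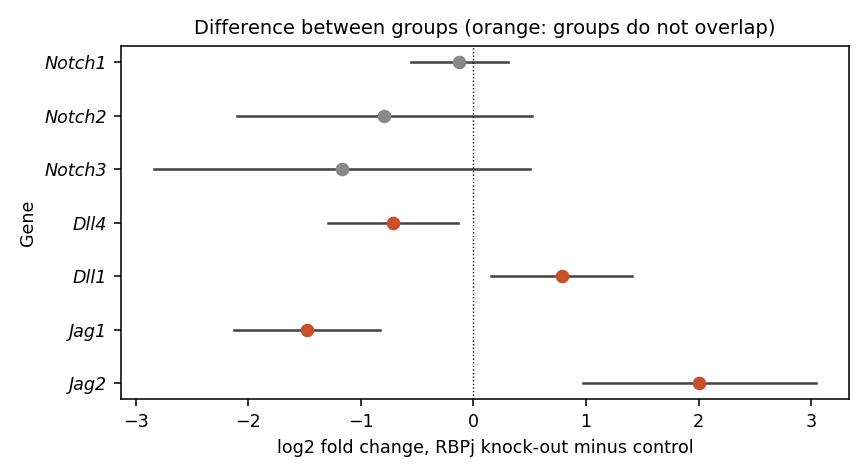
Log2 fold change of each gene, RBPj knock-out minus control, from edgeR (points) with 95% intervals (lines; n = 3 per group). Orange points mark the genes whose groups do not overlap; the intervals of the 4 ligands lie on 1 side of 0 and those of the 3 receptors cross it.

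The ligand mix was described as the share of each ligand in the summed RPKM of the 4, library by library, with no test because a share is a score over the members. Dll4 held the largest share in every library, Dll1 and Jag2 held more of the mix in each knock-out library than in any control, and Jag1 held less. Dll1's share was 9.23, 16.6 and 15.4% in the controls and 38.1, 28.0 and 22.6% in the knock-out. Jag1's share was 7.62, 7.13 and 15.3% in the controls and 5.21, 3.41 and 4.67% in the knock-out. Jag2's share was 0.755, 0.970 and 1.52% in the controls and 8.43, 4.37 and 3.16% in the knock-out. For each of these 3 ligands the groups did not overlap.

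Dll4's share was 82.4, 75.3 and 67.8% in the controls and 48.2, 64.2 and 69.5% in the knock-out. The means were 75.1 ± 7.30% and 60.7 ± 11.1% (SD, n = 3), but knock-out library 3 was above control library 3, so the groups overlapped. With the GENCODE lengths the mean control mix was 65.7% Dll4, 19.5% Jag1, 13.8% Dll1 and 1.03% Jag2, and the mean knock-out mix was 54.9% Dll4, 30.8% Dll1, 9.04% Jag1 and 5.27% Jag2.

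**Figure D4:**
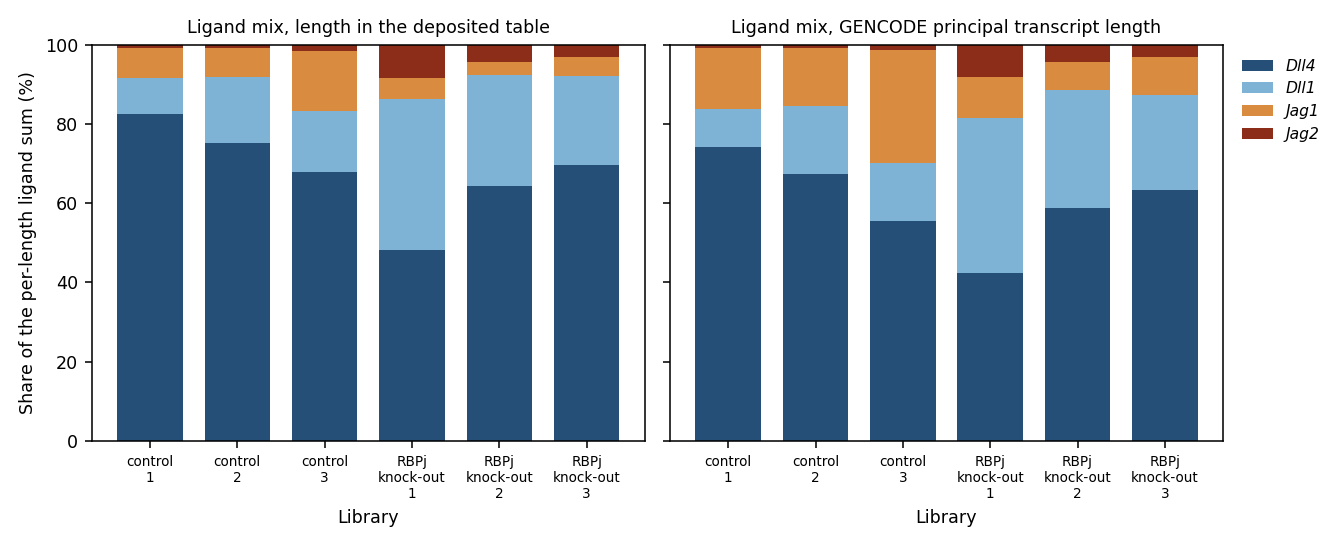
Share of each ligand in the summed per-length level of Dll4, Dll1, Jag1 and Jag2 (percent), 1 bar per library, with the gene lengths of the deposited table at left and of GENCODE principal transcripts at right. Dll4 is the largest part of all 6 bars under both lengths, and the Dll1 and Jag2 parts are larger in the 3 knock-out bars than in the 3 control bars.

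Within each ligand family the ratio of the members did not overlap between groups, while the family sums did. The ratio of Jag1 to Jag2 was 10.1, 7.34 and 10.1 in the controls and 0.618, 0.780 and 1.48 in the knock-out. With the GENCODE lengths it was 20.7, 15.1 and 20.7 against 1.27, 1.60 and 3.04. The groups were apart under both lengths, and only the table's lengths put Jag2 above Jag1, in knock-out libraries 1 and 2. The ratio of Dll4 to Dll1 was 8.92, 4.53 and 4.39 in the controls and 1.27, 2.29 and 3.07 in the knock-out, again without overlap. By contrast, the ratio of the Delta-like to the Jagged sum was 10.9, 11.4 and 4.96 in the controls and 6.33, 11.9 and 11.8 in the knock-out, and overlapped. The Delta-like sum itself was 94.6, 76.9 and 57.1 RPKM in the controls and 59.5, 59.2 and 58.3 RPKM in the knock-out. All 3 knock-out values lay inside the control range.

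The receptor mix was led by Notch1 throughout. Notch1's share of the summed RPKM of the 3 receptors was 76.0, 81.0 and 70.6% in the controls and 81.7, 85.8 and 86.6% in the knock-out, without overlap, although as shares of raw counts the groups overlapped. Notch2 held 20.3, 11.3 and 11.3% in the controls and 16.7, 6.77 and 7.53% in the knock-out. Notch3 held 3.71, 7.76 and 18.1% against 1.61, 7.45 and 5.87%, and was above Notch2 in control library 3 and knock-out library 2. The fourth receptor, Notch4, which is known as an endothelial receptor, could not be placed in this mix. Its row lies on a scaffold outside the assembled chromosomes and is listed at 0 in all 6 libraries, so the shares leave it out. Dll3, a ligand-like protein, had 0 counts in each control and 1, 3 and 4 counts in the knock-out, too few to be tested.

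The 250 bases before a RefSeq transcription start of each of the 7 genes (build GRCm38.p6) were read. The question was whether they hold the core motif that RBPj binds, TGGGAA, on either strand. For Dll1 (chr17:15375824-15376073) and Jag2 (chr12:112929496-112929745) the window lay inside the gene span given below, downstream of the start there. RefSeq had 2 windows for Dll1, and only the nearest to that start was read. None of the 7 windows held TGGGAA, against 21.6% of 32851 mouse promoter windows of that length. GGGAA, the same motif without its first base, was in the windows of Notch2 and Jag1, against 56.2% of all windows. CCAAT, a general promoter element, was in those of Dll4 and Dll1, against 33.8%. The windows of the 2 ligands that were lower in the knock-out are shown with these matches in capitals, CCAAT in Dll4 (chr2:119325534-119325783, plus strand) and GGGAA in Jag1 (chr2:137116521-137116770, minus strand). No match says only that these letters are not in the window.
Dll4: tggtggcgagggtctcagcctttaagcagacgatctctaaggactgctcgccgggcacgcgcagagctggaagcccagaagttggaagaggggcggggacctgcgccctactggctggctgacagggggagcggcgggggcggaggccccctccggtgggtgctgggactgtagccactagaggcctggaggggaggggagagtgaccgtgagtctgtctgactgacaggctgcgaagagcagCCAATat
Jag1: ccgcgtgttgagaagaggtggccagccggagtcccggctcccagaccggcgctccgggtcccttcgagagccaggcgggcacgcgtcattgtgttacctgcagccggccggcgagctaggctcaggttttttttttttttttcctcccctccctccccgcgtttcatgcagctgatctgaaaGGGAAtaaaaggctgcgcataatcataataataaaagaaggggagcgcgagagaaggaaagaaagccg

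On mm10, the table places Notch1 at chr2:26457902-26503822 (minus strand), Notch2 at chr3:98013538-98150367 (plus) and Notch3 at chr17:32120893-32166852 (minus). Dll4 lies at chr2:119325784-119335666 (plus), Jag1 at chr2:137081451-137116520 (minus), Dll1 at chr17:15367354-15376113 (minus) and Jag2 at chr12:112907803-112929764 (minus). Several members overlap other genes, and strand use in counting was not given in the sources used here. Gm14207, a noncoding RNA on the opposite strand, overlaps Dll4 by 414 bases at its start. Gm14207 had 300, 352 and 178 counts in the controls and 168, 188 and 216 in the knock-out, and its log2 fold change of -0.73 was near that of Dll4. Slx4ip lies opposite the end of Jag1 with 726 shared bases. Slx4ip had 195, 204 and 219 counts in the controls and 133, 118 and 155 in the knock-out, fewer than Jag1 in every library, with a log2 fold change of -0.80 ± 0.15 and an adjusted p of 0.0967. In both pairs the overlapping gene was lower in the knock-out by its mean level. Without strand, reads within the shared bases cannot be told apart from those of the member, while reads outside those bases can. No other gene overlaps Dll1, and those that overlap Notch1, Notch2, Notch3 and Jag2 had 884 counts or fewer over all 6 libraries.

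The wider pathway was followed in lists of 65 genes, 63 of them in the table and 54 tested. By edgeR, 1 rose, Myc (0.104% of all genes rose), and 0 fell (0.0909% of all genes fell). At an unadjusted p below 0.05, 6 of the 54 were higher and 10 lower, against 9.39% and 8.13% of all genes. DESeq2 called 5 higher and 5 lower, against 3.52% and 2.63% of all genes. In 6 the knock-out libraries lay above all controls and in 13 below, where 13.2% and 11.7% of all genes did so. Myc, a growth-promoting transcription factor and a Notch target in T cells, rose from 79.5 ± 9.07 to 221 ± 38.3 CPM (log2 fold change 1.48 ± 0.16, adjusted p = 0.0470).

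Among the 11 targets tested, the median log2 fold change was -0.65, against -0.03 for all genes. Gja4, Gja5, Sox17 and Cxcr4 are in this list and among the arterial markers as well. Hey1, a repressor induced by Notch in endothelium, was at 15.6, 14.4 and 24.9 CPM in the controls and 3.45, 3.36 and 5.42 CPM in the knock-out. Its adjusted p was 0.0565 by edgeR, and DESeq2 and limma-voom called it. The groups were far apart. Efnb2, which encodes the arterial membrane protein ephrin-B2, was at 199 ± 60.6 CPM against 104 ± 9.77 CPM (adjusted p = 0.141 by edgeR). DESeq2 called Efnb2 and limma-voom did not. Hes1, a repressor used in many tissues, was at 163 ± 20.3 against 123 ± 28.7 CPM, and Nrarp, a feedback inhibitor, at 141 ± 65.6 against 79.2 ± 26.4 CPM. Both overlapped between the groups, and neither was called by DESeq2 or limma-voom.

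Fringe enzymes add sugars to Notch receptors and alter which ligand family they respond to. Lfng was at 46.7, 60.7 and 44.5 CPM in the controls and 86.5, 113 and 100 CPM in the knock-out (adjusted p = 0.0770). Mfng was at 47.3, 41.4 and 33.0 CPM in the controls and 92.0, 78.6 and 77.0 CPM in the knock-out (adjusted p = 0.0669). All knock-out libraries were above all controls for these 2 genes. Neither passed the threshold by edgeR, while DESeq2 and limma-voom called both. Over the 6 sugar enzymes tested the median log2 fold change was -0.05.

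None of the genes listed for cutting and moving receptors and ligands passed the threshold by edgeR. The median log2 fold change was -0.17 over 10 cleavage genes, -0.03 over 14 genes of endocytosis and turnover, 0.04 over 11 nuclear partners and 0.08 over 2 non-canonical ligands. Of the 10 cleavage genes, 4 (Adam10, Psen2, Aph1c and Psenen) were lower in every knock-out library than in every control and 0 were higher, where 11.7% and 13.2% of all genes were so. Psen2, a catalytic subunit of gamma-secretase and named here after its values were seen, was at 152 ± 15.0 CPM in the controls and 95.1 ± 7.76 CPM in the knock-out (adjusted p = 0.0825 by edgeR), and was called by DESeq2 and limma-voom. Adam10, the first protease to cut the receptor, was at 338 ± 25.9 CPM in the controls and 297 ± 11.1 CPM in the knock-out, without overlap (adjusted p = 0.415). Mib1, the ubiquitin ligase that starts ligand endocytosis, was at 93.3 ± 6.50 against 104 ± 4.68 CPM (adjusted p = 0.438). Numb, which directs receptors to breakdown, was at 206 ± 30.0 against 207 ± 6.93 CPM (adjusted p = 0.987).

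For each member the 3 genes with the most similar profile were found among 12319 genes, by the root-mean-square difference of centred log2 CPM over the 6 libraries. Notch1 varied little, and its nearest genes were Raver2, Cds2 and Tbpl1 (differences 0.034 to 0.038). Adamts2, an enzyme that processes procollagen, and Srpx2 were nearest to Notch3 (both 0.076), followed by Art4 (0.127). Gmip, E330009J07Rik and Msrb1 were nearest to Notch2 (0.113 to 0.144). Dll4's nearest genes were Ube2l6, Gm6829 and Efnb2 (0.103 to 0.115), the last of which is a target in the pathway lists. Lmcd1, Osbpl10 and Myo19 were nearest to Dll1 (0.105 to 0.133). Jag1 was nearest to Rab27b, Sdc1 and Hk2 (0.197 to 0.206). Jag2 had the least close neighbors, Itga2b, Gprc5b and Car11 (0.279 to 0.326), of which Itga2b encodes the platelet integrin subunit alpha-IIb.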

How the data were processed

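RNA was sequenced from 6 SEC libraries, 3 per group, with groups and replicate numbers from the sample titles. Per the submitters' processing notes, build mm10, TopHat2 2.0.13 and bcl2fastq were used. Which program and annotation were used to count was not given in the sources used here, nor was the strand setting. The authors deposited whole-number counts per gene, not normalized, and RPKM values, which equalled count over gene length and library total within 0.1% in 100.0% of cases. Only the counts were tested. The limit of 3 counts covers counting error only, while the 95% intervals of fold changes rest on the spread between libraries.

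All genes were fitted with edgeR 4.0.16 in R 4.3.3 (filterByExpr, TMM, robust quasi-likelihood test, group only) and p-values were adjusted over 15404 genes by Benjamini-Hochberg, with a threshold of 0.05. The script was tested on simulated data. SE was taken from the fold change and F statistic. Alternatives were RLE size factors, DESeq2 1.42.0, limma 3.58.1 voom with quality weights, no filter, a stricter filter, a replicate block, each library left out, raw-count shares and, chosen after seeing the data, GENCODE M21 principal transcript lengths. Promoter sequences are from RefSeq.

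The members and lists were chosen with earlier results of these data known. Named were the 7 members, Rbpj, Notch4 and Dll3, overlapping genes, Hey1, Hes1, Nrarp, Efnb2, Lfng, Mfng, Adam10, Mib1 and Numb, any list gene past the threshold, and for each member the 3 genes of at least 2 average log2 CPM nearest in profile. Markers of venous endothelium (1956 to 2923 CPM in controls, 1905 to 2333 CPM in the knock-out), smooth muscle (134 to 331 against 27.5 to 119 CPM), biliary epithelium (437 to 970 against 296 to 936 CPM), hepatocytes (438 to 1988 against 189 to 2771 CPM), macrophages (792 to 2231 against 391 to 1711 CPM), B and T cells (12.3 to 32.5 against 15.3 to 19.5 CPM) and mesothelium (28.0 to 48.8 against 35.5 to 65.1 CPM) were summed too. Of these sums, only those of smooth muscle did not overlap between groups, but a sum can hide single markers that differ. Without overlap, 3 of the 8 venous markers were higher in the knock-out and 2 were lower. Of the 3 mesothelial markers 2 were higher, and of the 7 macrophage markers 1 was lower. Among all genes tested, 13.2% were higher and 11.7% lower without overlap.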

Additional observations from a re-analysis of the deposited data

How the results depend on the processing

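With 3 libraries per group, few genes passed adjustment and the counts moved with the method. Over all genes, 16 were higher and 14 lower by edgeR, 35 and 20 with RLE size factors, 542 and 405 by DESeq2, 291 and 198 by limma-voom, 114 and 62 with no filter on low counts, and 47 and 26 with a stricter filter. Leaving out single libraries gave 0 to 23 higher and 0 to 18 lower. The highest counts came without knock-out library 1, and edgeR called 0 without any other library, where 687 to 1382 genes in each direction still had an unadjusted p below 0.05. The cause was not tested.

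With the replicate number as a block, 1 gene was higher and 2 were lower. The pairing rests on a number only: same-numbered libraries correlated at 0.194, 0.031 and 0.419 in their deviations, and not every library correlated best with its own number. Under the block the adjusted p was 0.0667 for Notch2, 0.0673 for Jag1 and 0.146 for Jag2.

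Of the members' fold changes under these alternatives, 80 kept direction and side of the threshold, 3 newly passed it and 1 reversed. Since no member passed in the main fit, the 80 are values that stayed uncalled. Notch1 turned to 0.03 without control library 1. Jag1 passed the threshold by DESeq2 (-1.48) and limma-voom (-1.40), and Jag2 by DESeq2 (2.01). Without single libraries the ranges were -0.26 to 0.03 for Notch1, -1.37 to -0.23 for Notch2, -1.69 to -0.52 for Notch3, -0.91 to -0.47 for Dll4, 0.52 to 0.98 for Dll1, -1.64 to -1.25 for Jag1 and 1.46 to 2.31 for Jag2. Raw-count shares put Dll4 at 60.2% and Jag1 at 26.4% of the control ligands and Jag1 at 12.9% in the knock-out. With GENCODE lengths these were 65.7%, 19.5% and 9.04%, and the summed ligand level, which overlapped between groups with the table's lengths, did not.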
